A study of Mus musculus with 6 samples.

Results

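Microfold cell effector genes are a set of 5 genes whose products carry out or shape the work of microfold cells: Gp2, Prg3, Tnfrsf11b, Tnfaip2 and Marcksl1. They were chosen by name, and each was read from its probe set with a single gene symbol, which left 5 genes of the 19938 that had such a probe set. All 5 were bright enough to be tested, among 13925 tested genes. Their expression was measured in medullary epithelial cells of the thymus, which show T cells in training a sample of the body's own proteins. Sorting took cells that were CD45-, intermediate for Ly51 and high for MHC class II, from mice aged 4 to 6 weeks, and each mouse gave its own array. The 3 wild-type mice (WT) had intact Aire on a (B6xNOD)F1 background, and the 3 knockout mice (KO) were Aire-/- on the same (B6xNOD)F1 background. No label names the deleted part of Aire, and its whole-transcript probe set read 11.92 to 12.00 in WT and 12.38 to 12.42 in KO (log2 intensity), so that signal does not check the genotype. Values below are log2 intensities, a change is the KO mean minus the WT mean, and a gene rose or fell where limma's Benjamini-Hochberg adjusted p was under 0.05.

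Microfold cells are specialised epithelial cells over the lymphoid follicles of the gut that carry particles and bacteria from the lumen to immune cells beneath. They form when the cytokine RANKL (Tnfsf11) binds its receptor RANK (Tnfrsf11a) on epithelial precursors, which switches on NF-kB and the transcription factors Spi-B and Sox8. Medullary epithelial cells of the thymus also need RANK to mature, and a minority of them take on programmes that resemble those of other organs, microfold cells among them. Aire is a nuclear protein that promotes the expression of many tissue-restricted genes in these cells. In bulk samples, fewer cells of a type and less RNA per cell cannot be told apart.

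The promoters of 4 of the 5 genes were matched by symbol in the RefSeq promoter sequences of build GRCm38.p6, and 3 are shown to set the members that fell most beside the member that was not called. Each holds the 250 bases before the start site, 5′ to 3′ on the strand of the gene. Capitals mark matches, on either strand, to the TATA box TATAAA, to the box GAGGAA bound by ETS factors such as Spi-B, or to the NF-kB consensus. No matches to different motifs overlapped. The Gp2 promoter is chr7:119459273-119459522 on the minus strand, the Prg3 promoter chr2:84987965-84988214 on the plus strand and the Tnfaip2 promoter chr12:111442411-111442660 on the plus strand.
Gp2: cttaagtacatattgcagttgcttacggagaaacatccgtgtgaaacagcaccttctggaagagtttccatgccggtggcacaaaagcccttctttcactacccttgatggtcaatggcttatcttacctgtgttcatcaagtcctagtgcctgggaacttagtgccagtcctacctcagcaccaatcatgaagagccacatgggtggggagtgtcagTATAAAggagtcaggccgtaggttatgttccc
Prg3: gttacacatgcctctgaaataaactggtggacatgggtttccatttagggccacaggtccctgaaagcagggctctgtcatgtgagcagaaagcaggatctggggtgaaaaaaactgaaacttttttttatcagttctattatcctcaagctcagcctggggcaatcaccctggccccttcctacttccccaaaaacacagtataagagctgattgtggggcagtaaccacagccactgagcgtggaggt
Tnfaip2: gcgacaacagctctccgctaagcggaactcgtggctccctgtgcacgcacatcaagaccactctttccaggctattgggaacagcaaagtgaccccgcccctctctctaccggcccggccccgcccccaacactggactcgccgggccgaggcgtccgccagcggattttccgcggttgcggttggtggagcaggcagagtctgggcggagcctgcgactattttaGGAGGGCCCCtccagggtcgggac
The 250 bases of Gp2 held 4 CpG dinucleotides and those of Prg3 held 1, against 21 for Tnfaip2 and 12 for Marcksl1. A TATAAA began 32 bases before the Gp2 start site, as one did somewhere in 12.4% of 32851 promoters of the same length, in 7.4% of the first listed promoters of tested genes, in 12.3% of those of genes that fell and in 6.42% of those of genes not called. Tnfaip2 had 1 match to the NF-kB consensus, on the opposite strand and 24 bases before the start, which 7.25% of promoters share. Marcksl1 had 1 GAGGAA, which 23.3% of promoters hold on either strand. Prg3 had no match to any of the 3 motifs, which says only that these letters are not in this window. Taking the first listed promoter of each tested gene, the median number of CpG was 12 in 1558 genes that fell, 13 in 1288 that rose and 15 in 8175 that were not called. These counts are a description, and no test was made.

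Of the 5 genes, 3 fell (Gp2, Prg3 and Marcksl1), 1 rose (Tnfrsf11b) and 1 was not called (Tnfaip2). Over all tested genes 26.1% were called, 14.1% as lower and 12% as higher. In 4 of the 5 the WT and KO arrays did not overlap, which was so for 42.4% of all tested genes. The changes ran from -2.20 for Gp2 to 0.35 for Tnfrsf11b, with a median of -0.30, beside 0.02 over all tested genes. The genes were chosen with earlier results of these data known, so the counts describe the set and support no statement about microfold genes as a class.

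**Figure D1:**
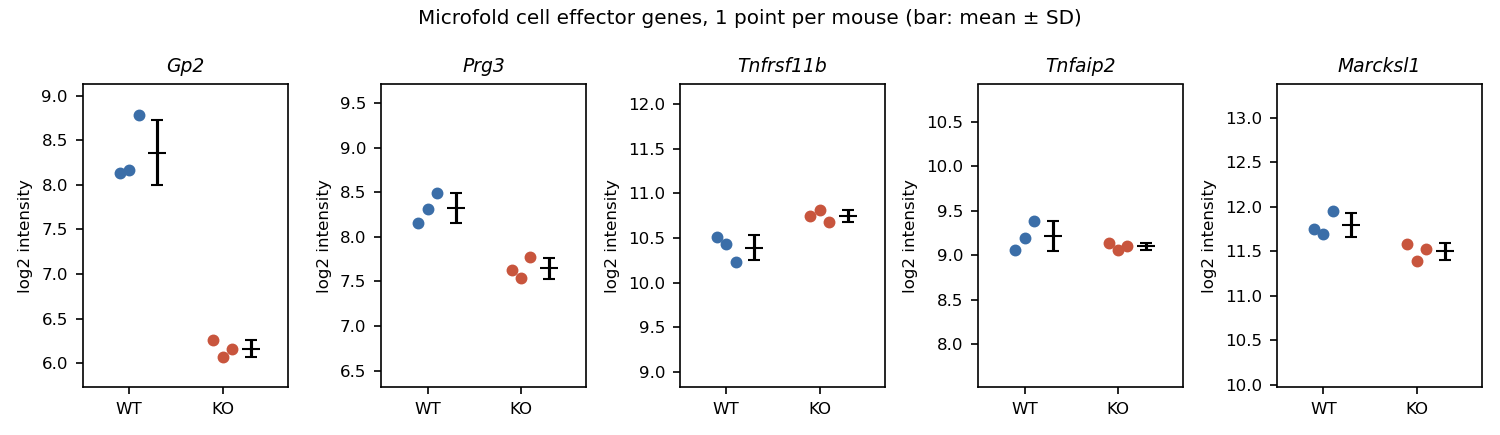
Log2 intensity (y axis) of the 5 microfold cell effector genes in each of 3 WT and 3 KO mice, 1 point per mouse, with mean ± SD beside the points and the same 3.4-unit span on every y axis. Gp2 drops from between 8.13 and 8.79 to between 6.07 and 6.26, while the Tnfaip2 points of both groups overlap.

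Gp2 encodes glycoprotein 2, a membrane-anchored receptor on the surface of microfold cells that takes up bacteria carrying type 1 fimbriae. Probe set 10567366 read 8.13, 8.17 and 8.79 in the WT mice and 6.26, 6.07 and 6.16 in the KO mice. Every KO array lay below every WT array by a wide margin, and the KO values were close to the intensity filter of 5.97. Gp2 fell 4.59-fold, a change of -2.20 on the log2 scale (95% interval -2.53 to -1.87, SE 0.15, 3 mice per group, limma adjusted p = 1.3e-06). Its change was larger in size than that of 99.6% of tested genes, and its mean went from the 76.6th percentile of all genes on the arrays in WT to the 34.8th in KO. RMA values keep a background, so the fold of a gene this close to the filter is limited by it. WT replicate 3 was the highest array, and without it the change was -1.99 (limma adjusted p = 7.5e-07).

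Umod, which lies next to Gp2 in the RefSeq gene order, encodes uromodulin, a related zona pellucida domain protein. It read 6.61, 6.30 and 6.67 in WT and 5.20, 5.76 and 6.10 in KO, so it fell by 0.84 on the log2 scale (limma adjusted p = 0.0071). Umod had 3 WT arrays and 1 KO array above the filter. The size of its fall is limited by the background that RMA values keep, so the difference between the changes of Gp2 and Umod is not given. Of the 10 genes nearest to Gp2, 5 on each side, 3 were tested and Umod was the only call. Among all tested genes 26.1% were called, so 1 of 3 is no result about this neighbourhood. Gprc5b stood at -0.10 and Gpr139 at 0.20.

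Several other genes of the zona pellucida domain family, named for the fold that Gp2 and uromodulin share, also fell. In this list of 13 genes that includes Umod, 9 were tested, 6 fell and 1 rose. That was 77.8% called against 26.1% of all tested genes. Cuzd1, a zona pellucida domain gene of the pancreas, fell from 7.30 ± 0.13 to 5.76 ± 0.21 (SD, n = 3). Tectb of the inner ear fell by 1.07 on the log2 scale, Dmbt1, a secreted mucosal scavenger receptor, by 1.03, and the egg coat gene Zp3 by 1.02. Zp2, another egg coat gene, rose from 9.32 ± 0.16 to 9.78 ± 0.03. Each of the 6 genes that fell had 3 WT arrays and 0 or 1 KO arrays above the intensity filter, so they passed through the WT arrays and their share supports nothing about the family.

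Prg3 encodes major basic protein 2, a cationic granule protein first known from eosinophils and also listed among microfold cell transcripts. Probe set 10473406 read 8.16, 8.32 and 8.49 in WT and 7.63, 7.54 and 7.77 in KO. The groups did not overlap, and all 6 arrays lay above the filter. Prg3 fell 1.60-fold, by 0.68 on the log2 scale (95% interval -0.90 to -0.45, SE 0.10, n = 3 per group, limma adjusted p = 0.00065). It was called in all 15 alternative settings, with changes between -0.76 and -0.59.

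Prg2, the paralogue that encodes the abundant major basic protein of eosinophil granules, lies 2 genes away from Prg3. Its values were 8.88, 8.88 and 8.84 in WT and 9.29, 8.87 and 9.12 in KO. The groups overlapped, and the change of 0.22 was not called (95% interval -0.01 to 0.45, limma adjusted p = 0.14). The changes of Prg3 and Prg2 differed by -0.90 ± 0.15 (SE). An exact two-sided permutation test over the 6 arrays gave p = 0.1 for that difference, the smallest that 3 against 3 allows, and 0.13 after adjustment over 4 gene pairs, which were chosen after the values were seen. The adjustment counts the pair of Gp2 and Umod, which was computed with the others and is not reported. Whether the probes of these paralogues share sequence was not tested here. On the other side of Prg3, the ATP-gated channel gene P2rx3 rose by 0.58. The transporter gene Slc43a3, 3 genes away on the Prg2 side, also rose by 0.58, while Slc43a1 fell by 0.43. These were the called genes among 7 tested neighbours, against 26.1% called over all tested genes.

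Markers of eosinophils moved beside Prg3 in part. Of 6 such genes with a probe set, 5 were tested, 3 fell and 0 rose, or 60% called against 26.1% of all tested genes. Epx and Ear6, 2 of those that fell, had 3 WT arrays and 1 KO array above the filter, so they passed through the WT arrays and the count supports nothing. The eosinophil peroxidase gene Epx read 7.63, 7.53 and 7.52 in WT and 5.70, 5.97 and 6.06 in KO, a fall of 1.65 on the log2 scale. The interleukin 5 receptor gene Il5ra fell by 1.08 and the ribonuclease gene Ear6 by 0.46. Prg2 and the surface lectin gene Siglecf, at 0.22 and 0.12, were not called, and the eotaxin receptor gene Ccr3 was under the filter on every array. The summed linear intensity of the 6 genes was 1005 to 1039 in WT and 814 to 953 in KO, and the part of eosinophil RNA in the Prg3 result was not tested. Eosinophils carry CD45, and the sort took CD45- cells. Ptprc, the gene of CD45, was above the filter on every array, with means of 7.09 in WT and 6.47 in KO.

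**Figure D2:**
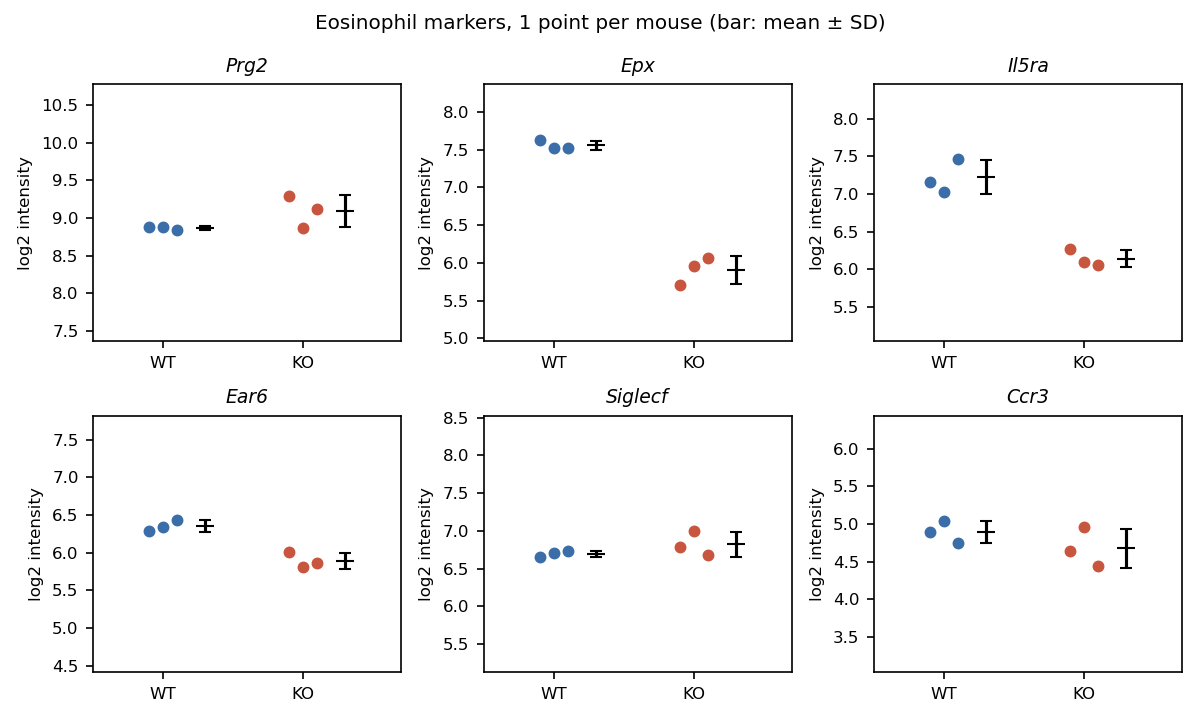
Log2 intensity (y axis) of 6 eosinophil marker genes in each of 3 WT and 3 KO mice, 1 point per mouse, with mean ± SD beside the points and a 3.4-unit span on every y axis. Epx, Il5ra and Ear6 are lower in every KO mouse, while Prg2, Siglecf and Ccr3 overlap between the groups.

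Tnfrsf11b encodes osteoprotegerin, a secreted decoy receptor that binds RANKL and keeps it from RANK. Probe set 10428604 read 10.51, 10.43 and 10.23 in WT and 10.75, 10.81 and 10.68 in KO. The 3 KO mice lay above the 3 WT mice, and the lowest array was WT replicate 3. Tnfrsf11b rose 1.28-fold, by 0.35 on the log2 scale (95% interval 0.15 to 0.56, SE 0.09, 3 mice per group, limma adjusted p = 0.017). The call was lost without KO replicate 1 (change 0.35, limma adjusted p = 0.052) and without KO replicate 2 (change 0.32, limma adjusted p = 0.057). Of the 10 neighbours of Tnfrsf11b, 3 were tested and 2 fell, against 26.1% called over all tested genes. Ext1, a heparan sulphate synthase gene, fell by 0.50 and Mal2, a gene of apical sorting, by 0.33. Samd12 stood at 0.08 and was not called. Mal2 lost its call in 4 of the 6 fits that left out 1 array (limma adjusted p of 0.071 to 0.10).

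The ligand and the signalling receptor that osteoprotegerin competes for were not called. RANKL (Tnfsf11) stood at 0.11, with 7.91, 7.80 and 7.43 in WT and 7.81, 7.81 and 7.86 in KO (95% interval -0.14 to 0.37). RANK (Tnfrsf11a) stood at 0.13, with 10.01, 10.07 and 10.20 in WT and 10.23, 10.29 and 10.15 in KO (95% interval -0.06 to 0.32). The changes of Tnfrsf11b and Tnfrsf11a differed by 0.22 ± 0.14 (SE), with an exact permutation p = 0.1 and 0.13 after adjustment.

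In a list of 22 genes of RANK signalling and of receptors and ligands linked to it (RANKL, RANK, Cd40, Ltbr and Tnfsf10 among them), 19 had a probe set and were tested, and of these 2 fell and 1 rose, or 15.8% against 26.1% of all tested genes. Relb, the NF-kB subunit of the noncanonical arm, rose from 10.14 ± 0.04 to 10.49 ± 0.04 (SD, n = 3, limma adjusted p = 0.0065). The NF-kB subunit gene Rel fell by 0.41, and Tnfsf10, which encodes the death ligand TRAIL that osteoprotegerin also binds, fell by 0.47. Nfkb2 (0.08), the partner of Relb, the adaptor Traf6 (0.04) and the kinase gene Map3k14 (0.29) were not called. The median change of the list was 0.08. The number of calls was 5 with trended, robust variances and 6 with array weights.

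Among 24 further genes of the TNF receptor superfamily, 21 were tested, 6 rose and 3 fell, beside 12% and 14.1% of all tested genes, or 42.9% called against 26.1%. The costimulatory receptor genes Tnfrsf4 (OX40), Tnfrsf9 (4-1BB) and Tnfrsf18 (GITR) rose by 0.67, 0.46 and 0.40, and Eda2r, a receptor for ectodysplasin, by 0.55. Tnfrsf17 (BCMA) rose by 0.43 and Tnfrsf14 (HVEM) by 0.32. The genes that fell were Tnfrsf21, Tnfrsf8 and Tnfrsf23, by 0.31, 0.32 and 0.37. Each of these 3 lost its call in 5 of the 6 fits without 1 array (limma adjusted p of 0.056 to 0.12), and Tnfrsf14 in 1, without KO replicate 3. Without KO replicate 3 the calls in this list numbered 5, all of them higher, and the number called as lower was 0 without WT replicate 2 or without WT replicate 3.

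Tnfaip2 encodes M-Sec, a protein related to the exocyst that was found in microfold cells and promotes thin membrane tubes between cells together with the GTPase RalA. Probe set 10398665 read 9.06, 9.19 and 9.39 in WT and 9.14, 9.06 and 9.10 in KO. The KO values lay inside the WT range, and WT replicate 3 was the highest array. The change of -0.11 was not called (95% interval -0.32 to 0.10, SE 0.10, n = 3 per group, limma adjusted p = 0.41), and a fall larger than 0.32 or a rise larger than 0.10 lies outside that interval. Without WT replicate 3 the change was -0.02.

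Of 18 tested genes of the Ral GTPases, the exocyst and their partners, 3 rose and 3 fell, or 33.3% against 26.1% of all tested genes, with a median change of -0.01. That share is near the one over all genes and is no result about the list. Exoc2, an exocyst subunit that binds Ral, rose from 9.99 ± 0.13 to 10.45 ± 0.12 (SD, n = 3), and Ralgds, which activates Ral, rose by 0.33. Exoc3l4, a relative of Tnfaip2 and its nearest neighbour on one side, rose by 0.28. The subunit genes Exoc6b and Exoc5 fell by 0.42 and 0.28, and Myo10, a motor of filopodia, fell by 0.35. In the fits without 1 array, Exoc5 lost its call in 5 of 6, Exoc3l4 in 4 and Ralgds in 3 (limma adjusted p of 0.056 to 0.18). Rala itself stood at 0.16 and was not called. The calls in this list numbered 3 without WT replicate 1, without KO replicate 1 or without KO replicate 3.

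Marcksl1 encodes a small lipid-anchored protein that binds actin and calmodulin at the plasma membrane and is released from it by protein kinase C. Probe set 10508465 read 11.74, 11.69 and 11.95 in WT and 11.58, 11.39 and 11.52 in KO. The groups did not overlap, though the nearest arrays, WT replicate 2 and KO replicate 1, stood 0.11 apart. Marcksl1 fell 1.23-fold, by 0.30 on the log2 scale (95% interval -0.51 to -0.09, SE 0.09, 3 mice per group, limma adjusted p = 0.039). The call was lost with each array centred on its median (-0.29, limma adjusted p = 0.066). It was also lost without WT replicate 1 (a change of -0.32, limma adjusted p = 0.060) and without WT replicate 3 (a change of -0.22, 0.095). The same held when any KO array was left out, with changes of -0.34, -0.24 and -0.31 and limma adjusted p-values of 0.059, 0.12 and 0.089 for replicates 1, 2 and 3.

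Marcks, the larger founding member of its family, was not called at -0.06, with 11.15, 10.97 and 10.98 in WT and 10.90, 11.09 and 10.94 in KO. The changes of Marcksl1 and Marcks differed by -0.24 ± 0.16 (SE, exact permutation p = 0.2, also 0.2 after adjustment). In a list of 12 relatives and regulators of Marcksl1, 11 were tested, 5 fell and 2 rose, or 63.6% called against 26.1% of all tested genes. The protein kinase C gene Prkca rose from 8.51 ± 0.10 to 9.44 ± 0.18, and Basp1, a functional relative, by 0.64. Prkcb, Prkce and Prkch, which encode other protein kinase C forms, fell by 0.38, 0.35 and 0.57, the calmodulin gene Calm2 by 0.51 and the growth cone gene Gap43 by 0.55. Prkce and Prkch each lost the call in 4 of the 6 fits without 1 array and Prkcb in 2 (limma adjusted p of 0.057 to 0.17). The WT and KO arrays overlapped for Prkch. It had 3 WT arrays and 1 KO array above the filter, and Gap43 had 3 and 2. Both genes passed through the WT arrays, so the share called supports nothing about the list. Hdac1, next to Marcksl1 in the gene order, fell by 0.34 and was the only call among 6 tested neighbours. The calls in this list numbered 4 without WT replicate 1 or without KO replicate 3.

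**Figure D3:**
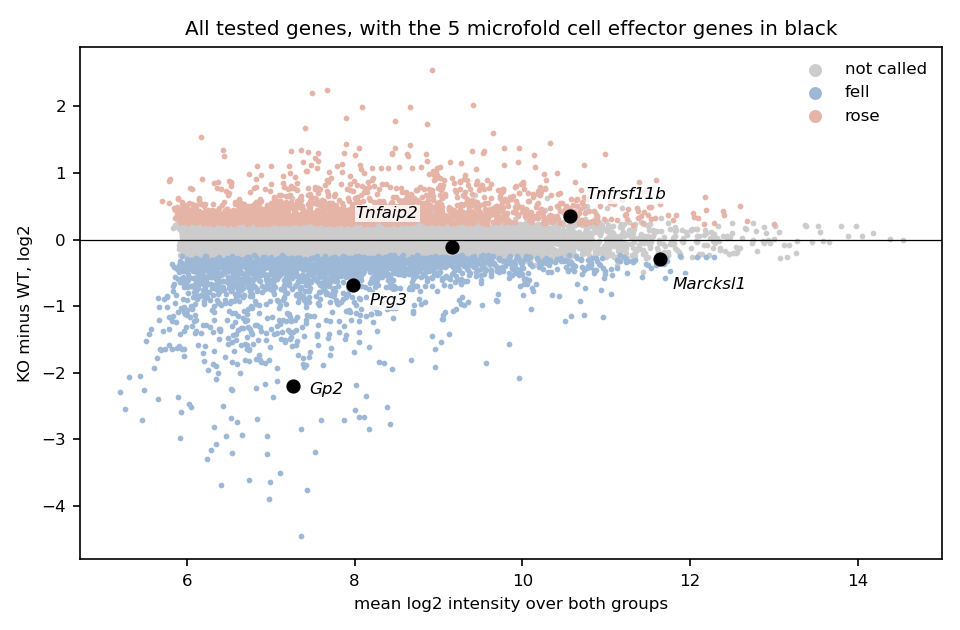
Change (KO minus WT, log2, y axis) against mean log2 intensity over both groups (x axis) for the 13925 tested genes, with genes that fell in blue, genes that rose in red and genes not called in grey. The 5 microfold cell effector genes are black points, and Gp2, at -2.20, lies farthest from 0 among them.

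Other genes known from microfold cells gave a wider view of the programme. Of 17 such effector genes, 15 were tested, 8 fell and 3 rose, so 73.3% were called against 26.1% of all tested genes, with a median change of -0.30. Umod is among the 8 that fell. It had 3 WT arrays and 1 KO array above the filter and passed through the WT arrays, so the share supports nothing about microfold genes as a class. The list was written with earlier results in view, and Ccl20 and Ccl9 were known from them to fall. Without 1 array the calls numbered 8 to 11, the lowest without KO replicate 1, when Scg5, Glipr1 and Cyba were not called.

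The secreted attractants of this list were lower. Ccl20, the ligand of Ccr6 that draws dendritic cells and B cells to the follicle epithelium, read 9.78, 9.81 and 9.93 in WT and 8.41, 8.37 and 8.47 in KO. Ccl9, which recruits dendritic cells below the epithelium, read 8.82, 8.87 and 9.15 in WT and 7.48, 7.53 and 7.73 in KO. No KO array reached the WT range for either gene. Ccl6 fell by 0.56 and Cxcl16, a membrane-bound chemokine, by 0.46 on the log2 scale.

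Among the uptake and defence genes, Pglyrp1, which encodes a peptidoglycan recognition protein, fell from 10.43 ± 0.22 to 9.59 ± 0.07 (SD, n = 3). The chaperone gene Clu fell by 0.75, and Scg5, a chaperone of secretory granules, by 0.30. Prnp, the prion protein gene, stood at 0.23 and the annexin gene Anxa5 at -0.21, and neither was called. Gjb2, which encodes the gap junction protein connexin 26, rose from 10.41 ± 0.03 to 11.06 ± 0.11. Glipr1 rose by 0.38 and the oxidase subunit gene Cyba by 0.32. Scg5 lost its call in 3 of the 6 fits without 1 array, Cyba in 2 and Glipr1 in 1 (limma adjusted p of 0.054 to 0.11). Serpinb6a (-0.05) and Icam2 (-0.11) were not called, and Aif1 and C5ar1 were too dim to test.

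The transcription factor genes that direct microfold cells were not called. Of 5 tested, limma called 0 at an adjusted p under 0.05, against 26.1% of all tested genes. In each of the 15 alternative settings 0 of 5 were called. A count of 0 among 5 genes is no result about these regulators as a set. Spib read 10.43, 10.39 and 10.39 in WT and 10.48, 10.35 and 10.48 in KO, a change of 0.03 (95% interval -0.14 to 0.21). Sox8 stood at 0.11 (95% interval -0.06 to 0.28), with every KO array just above the WT arrays. Esrrg, an orphan nuclear receptor gene, stood at 0.07, Atoh8 at -0.11 and Onecut2 at 0.22. The number of these genes with an unadjusted p under 0.05 was 0.

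**Figure D4:**
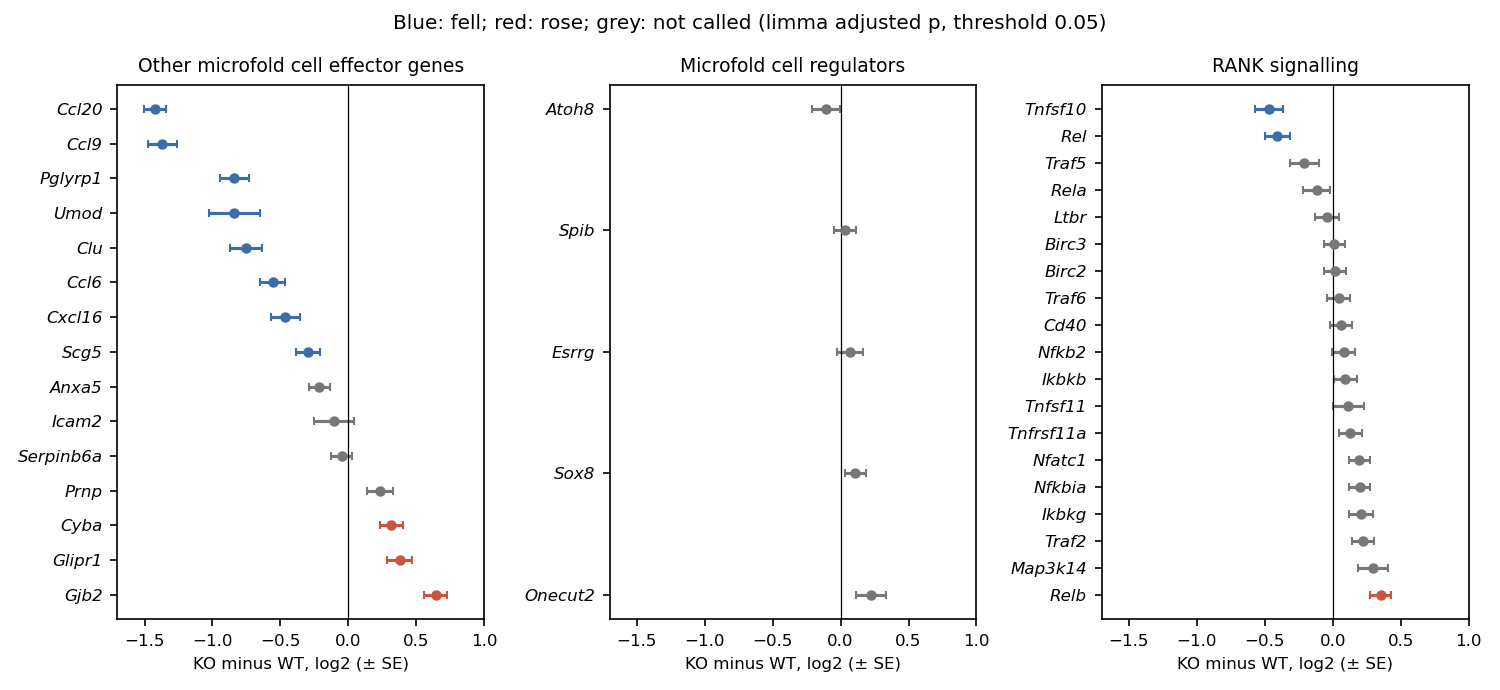
Change (KO minus WT, log2, x axis) with SE for the tested genes of 3 lists, the other microfold cell effector genes, the microfold cell regulators and RANK signalling, with genes that fell in blue, that rose in red and not called in grey. In the first list 8 genes lie in blue and 3 in red, and all 5 regulators are grey.

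The 5 genes also differed in how they tracked across the 6 arrays, where all points share the genotype contrast. The Pearson correlation of log2 intensity with Gp2 was 0.98 for Prg3, 0.92 for Marcksl1, 0.65 for Tnfaip2 and -0.95 for Tnfrsf11b. WT replicate 3 was the highest of the 6 arrays for Gp2, Prg3, Marcksl1 and Tnfaip2, and the lowest for Tnfrsf11b. Over all tested genes, those most like Gp2 were the casein gene Csn1s1 (r = 0.9997), Plagl1 (0.999) and Itpr2 (0.999). Those most like Prg3 were Dapl1 (0.998), the trefoil peptide gene Tff3 (0.997) and the urokinase gene Plau (0.996). For Tnfrsf11b they were A630072L19Rik (0.998), Lkaaear1 (0.996) and Vdac3 (0.996), for Tnfaip2 Ints9 (0.998), Gak (0.991) and Ap1s1 (0.989), and for Marcksl1 Mettl17 (0.994), Ces2e (0.993) and Cntn1 (0.993). Csn1s1 had a mean of 4.28 in KO and Lkaaear1 of 5.83 in WT, both under the filter of 5.97. With 6 arrays in a pair of groups, such correlations are a description of these arrays.

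The sorted cells carried the markers of their label. All 14 medullary epithelial markers were tested, among them Epcam, Krt8 and the MHC class II genes, with 3 lower and 1, Aire, higher in KO, or 28.6% called against 26.1% of all tested genes. Without KO replicate 1 the calls numbered 2, as Epcam (limma adjusted p = 0.092) and Krt14 (0.057) were not called. Of 6 cortical epithelial markers, Psmb11 and Ackr4 were under the filter on every array, while Ctsl, Ly75, Dll4 and Prss16 were above it on all 6, with WT means of 10.48, 9.01, 8.45 and 7.69. Ctsl fell by 0.72 and Prss16 rose by 0.36. Thymocyte markers had a summed intensity of 1620 in WT replicate 3, against 929 to 986 in the other WT arrays and 675 to 944 in KO. Of 7 tested thymocyte genes Cd3g alone was called, or 14.3% against 26.1% of all tested genes. Cd3g fell by 1.40, a call lost with trended, robust variances (limma adjusted p = 0.10), while Cd3e (-0.01) and Ptcra (0.04) were among those not called. Over all probe sets, WT replicate 3 correlated at 0.990 and 0.991 with WT replicates 1 and 2, which gave 0.993 with each other. With the KO arrays it gave 0.976 to 0.979, against 0.982 to 0.985 for WT replicates 1 and 2. Macrophage markers summed to 3481 to 3822 in WT and 3241 to 3345 in KO, with 4 of 6 tested genes lower, Cd68 higher by 0.32 and Lyz2 (-0.06) not called. Adgre1, among the lower genes, had 3 WT arrays and 0 KO arrays above the filter, so it passed through the WT arrays and the count supports nothing. The Cd68 call was lost in 5 of the 6 fits without 1 array (limma adjusted p of 0.053 to 0.15), with each array centred on its median (0.060) and without the intensity filter (0.059). Of 3 tested leukocyte markers Ptprc alone was called, or 33.3% against 26.1% of all tested genes. Ptprc fell by 0.62, a call lost without WT replicate 3 (-0.42, limma adjusted p = 0.064) or KO replicate 3 (-0.47, 0.093). Coro1a (0.10) and Laptm5 (0.05) were not called, and the 3 genes summed to 5533 to 6603 in WT and 5738 to 6626 in KO. Enterocyte and goblet cell markers, whose tissue also holds microfold cells, summed to 2568 to 2896 in WT and 1364 to 1404 in KO, and 5 of 6 tested genes fell. Among those that fell, Muc2 had 3 WT arrays and 1 KO array above the filter, and Alpi 3 and 2. These genes passed through the WT arrays, so the count supports nothing. Of the other marker lists, limma called 1 of 5 tested dendritic cell genes (higher), 2 of 5 fibroblast genes (1 higher, 1 lower), 0 of 3 endothelial genes and 2 of 7 tuft cell genes (1 higher, 1 lower). Both tested B cell genes, Pax5 and Cd79b, rose, but the number called was 0 or 1 in each of the 6 fits without 1 array. The B cell genes Ms4a1 and Cd79a were under the filter on every array, and their changes of -0.48 and -0.11 went the other way. The number called was 2 for dendritic cell genes without WT replicate 1, 1 for endothelial genes and 2 for thymocyte genes without WT replicate 2, 1 for cortical epithelial genes without KO replicate 2 and 4 for tuft cell genes without KO replicate 3. Over all tested genes 26.1% were called. The part of these other cell types in the results for the 5 genes was not tested.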

How the data were processed

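RNA of sorted medullary epithelial cells was amplified in 2 rounds and hybridised as biotinylated cRNA, 1 array per mouse, per the labels' protocols. The authors deposited RMA intensities on the linear scale, per the submitters' processing notes, so the values were background-corrected and quantile-normalized before deposit, so a change in the total RNA of a cell cannot be seen. The RMA version and genome build were not given in the sources used here. Array medians ran from 92.9 to 98.2. Precision is limited by the number of arrays. RMA gives no detection call.

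The log2 of each intensity was taken, with 0 as pseudocount. Of 35512 probe sets, 21789 had 1 gene symbol in the platform annotation, 1621 several and 12102 none. For a gene with several 1-symbol probe sets the brightest on average was used, and each of the 5 genes had 1. A gene was tested where 3 or more arrays exceeded 5.97, the 40th percentile of the whole table, which gave 13925 genes, and 6013 were set aside as dim. The test was limma 3.58.1 in R 4.3.3 (two-sided, genotype as the only factor, Benjamini-Hochberg over all tested genes, threshold 0.05), checked on simulated data. Intervals come from the same fit. Figures were drawn with matplotlib 3.10.9. Replicate numbers were not used to pair the mice in the main fit. The members and gene lists were chosen with earlier results of these data known. Named genes are the 5 members, called genes of each list (at most 6 a list in order of adjusted p), members of the microfold and RANK lists, the 5 neighbours on each side and the 3 most correlated genes. Other genes, such as marker genes and further called members, were named after their values were seen. RefSeq gene order (GRCm38.p6) served for neighbours, and promoter sequences are RefSeq's. Alternatives covered the filter, normalization, centring, offset, probe set rule, variance model, array weights, replicate block and each array left out.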

Additional observations from a re-analysis of the deposited data

How the results depend on the processing

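Gp2, Prg3 and Tnfaip2 kept their direction and their side of the threshold in all 15 alternatives each, with changes of -2.32 to -1.80, -0.76 to -0.59 and -0.19 to -0.02. Marcksl1 kept its direction and lost its call with median centring (-0.29) and without any 1 array other than WT replicate 2, with changes of -0.35 to -0.22 over the arrays left out. Tnfrsf11b lost its call without KO replicate 1 or 2, with changes of 0.27 to 0.41 over the arrays left out. Calls over all genes numbered 3639, and 2416 to 3251 without 1 array, the lowest without KO replicate 1, when 1052 rose in place of 1676 (1052 to 1547 over the arrays left out). In those fits the array left out also lowers the number of samples. RANK signalling gave 3 calls, 5 with trended, robust variances and 6 with array weights, and the cause was not tested. The other lists of the microfold programme stayed within 1.5 times their count.

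Mice with the same replicate number did not deviate together (r = -0.02, -0.21 and -0.06 over tested genes), and pairs of unlike number gave r of -0.10 to 0.15. With 3 arrays per group these values cannot show whether the numbers pair the mice. With the replicate block, all genes gave 3110 calls, and the 5 genes kept the direction and side of their calls.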
